A study of Mus musculus and Homo sapiens with 10 samples.

Results

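The regions described here are the ChIP-seq peaks on the proximal long arm of human chromosome 1 (band 1q21), taken as all peaks of the 3 human lists with a centre between positions 142500000 and 149700000 of hg19. The rule found 319 peaks among the 51046 of these lists: 91 of 9478 peaks of the upstream binding factor (UBF) in HMEC, 139 of 9294 peaks of RNA polymerase I (Pol I) in HMEC, and 89 of 32274 UBF peaks in HMLER. HMEC is a line of mammary epithelial cells immortalized by TERT. HMLER is the tumorigenic line made from it, and it expresses an oncogenic form of HRAS (HRASV12G) with TERT and SV40 large-T. No drug or time course was applied, and both lines grew exponentially in the same medium. UBF was precipitated with an antibody against UBF1/2 and Pol I with antibodies against its largest subunit, POLR1A. There is 1 list for each antibody and line, so n = 1 throughout and no difference between lists can be set against a spread between cultures.

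UBF is an architectural protein that binds the ribosomal RNA genes in the nucleolus and opens them to Pol I, the polymerase that makes the large ribosomal RNA precursor. Both are best known there, and the peaks described below lie on an ordinary chromosome arm. The 1q21 band is known for large blocks of near-identical duplicated sequence and for genes of the neuroblastoma breakpoint family (NBPF), each of which carries a tandem array of a repeated coding unit. No hg19 genome or annotation was used here, so the duplication and the genes under each peak were not checked, no sequence is shown, and each region is given by its position.

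The segment was selected for its peak density in these same lists, so densities, clusters, ranks and places are a description with no test. HMEC UBF peaks stood at 12.6 per Mb in the segment (exact 95% Poisson interval 10.2 to 15.5) and 4.01 per Mb on the rest of chromosome 1 (3.76 to 4.27). HMEC Pol I peaks stood at 19.3 per Mb (16.2 to 22.8) and 3.69 per Mb (3.45 to 3.94). HMLER UBF peaks stood at 12.4 per Mb (9.93 to 15.2) and 14.8 per Mb (14.3 to 15.3). The densities in the segment were thus 3.15 times (2.52 to 3.91) those of the rest for HMEC UBF, 5.23 times (4.34 to 6.26) for HMEC Pol I, and 0.837 times (0.671 to 1.03) for HMLER UBF. These intervals cover counting error only, and neighbouring peaks are not independent. The rest takes in most of a 22.3-Mb stretch without a peak, which lowers its densities. Over only the 100-kb windows with a peak of any human list, the ratios were 2.66 (2.12 to 3.30) for HMEC UBF and 4.42 (3.67 to 5.29) for HMEC Pol I. For HMLER UBF the ratio was then 0.707 (0.566 to 0.872). With 2.89% of the span of chromosome 1 from its first to its last peak, the segment held 8.58% of the HMEC UBF peaks, 13.5% of the HMEC Pol I peaks and 2.43% of the HMLER UBF peaks of the chromosome.

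**Figure D1:**
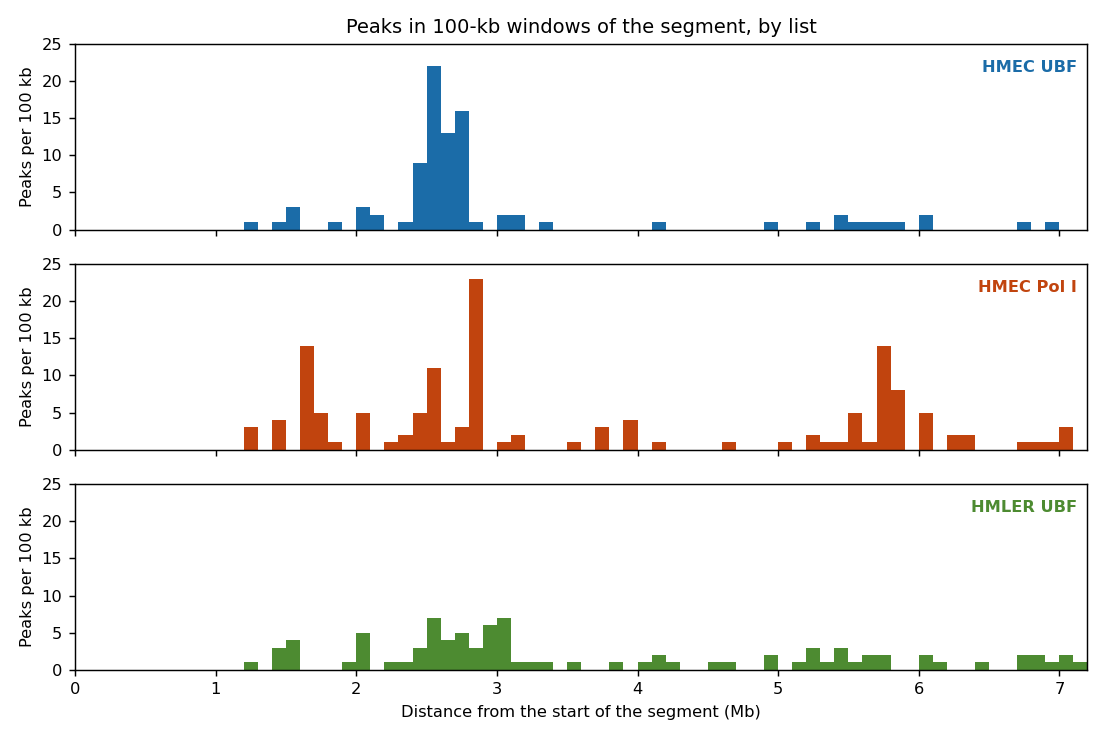
Peaks per 100-kb window (vertical axes) against the distance in Mb from the start of the segment, for HMEC UBF (top), HMEC Pol I (middle) and HMLER UBF (bottom), 1 list each. The tallest bars are 22 HMEC UBF peaks, 23 HMEC Pol I peaks and 7 HMLER UBF peaks, and the tallest UBF and Pol I windows of HMEC are different windows.

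The balance between the lines was also different from that of the rest of the chromosome. On the rest, the HMLER list held 3573 UBF peaks against 970 in HMEC, or 3.68 HMLER peaks for each HMEC peak. In the segment the counts were 89 and 91, a ratio of 0.978. Chromosome 1 was divided into stretches as long as the segment, 7.2 Mb, of which 33 held a peak (those at the chromosome ends are shorter). The stretches were laid out from the limits of the segment, which was chosen for its peak density. Its place among them is therefore a description only. The segment was the only 1 of the 33 in which HMEC had more UBF peaks than HMLER, by 91 to 89. That order came from a dense block of 417 kb described below. Outside the block, the segment held 30 HMEC and 69 HMLER UBF peaks. It ranked 1 of 33 for HMEC UBF, where the other stretches held 2 to 81 peaks (median 26.5), and 1 of 33 for HMEC Pol I, where they held 1 to 62 (median 25.5). For HMLER UBF it ranked 17 of 33, among counts of 5 to 326 (median 93).

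**Figure D2:**
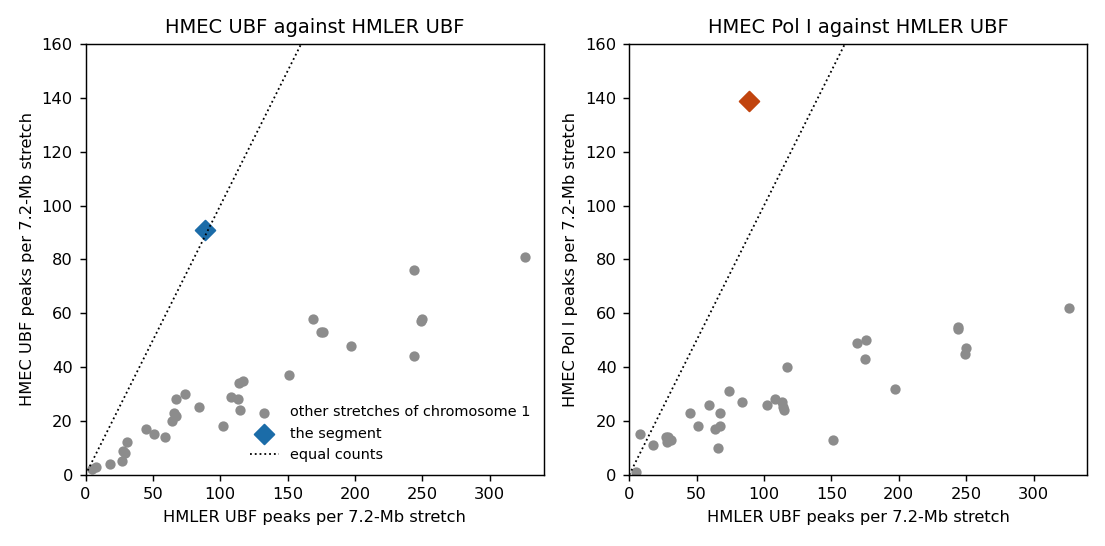
Peaks of HMEC UBF (left) and HMEC Pol I (right) against peaks of HMLER UBF in 7.2-Mb stretches of chromosome 1, with the segment as a diamond and a dotted line where the counts are equal. The segment lies at 89 HMLER UBF peaks with 91 HMEC UBF and 139 HMEC Pol I peaks, while the other stretches hold at most 81 HMEC UBF and 62 HMEC Pol I peaks. The segment was chosen for its peak density.

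Peaks of the HMEC lists were wider in the segment than elsewhere on the chromosome. The median width of HMEC UBF peaks was 794 bp in the segment (quartiles 513 and 1149) and 466 bp on the rest (377 and 619). That of HMEC Pol I peaks was 361 bp (297 and 493) and 287 bp (246 and 318), and that of HMLER UBF peaks was 1026 bp (731 and 1589) and 953 bp (682 and 1498). In covered sequence, HMEC UBF took 1.23% of the segment and 0.22% of the rest, HMEC Pol I 0.791% and 0.119%, and HMLER UBF 1.43% and 1.72%. Width is the only property of a peak that the files hold besides its place.

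The first part of the segment holds no peak. On the centromeric side no human list held a peak between 121485448 and 143743023, a stretch of 22.3 Mb that takes in the first 1243 kb of the segment. The members nearest to that edge were an HMLER UBF peak from 143743023 to 143745095, an HMEC UBF peak from 143744311 to 143745117 and a Pol I peak from 143745347 to 143745722. On the other side the last members were HMEC UBF at 149399987 to 149400581, Pol I at 149584861 to 149585275 and HMLER UBF at 149605625 to 149606193. The first peaks beyond the limit began at 149783308 for HMEC UBF, 149803375 for Pol I and 149764006 for HMLER UBF. Inside the segment the longest stretch without a peak of any list ran from 146715426 to 147070507 (355 kb).

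HMEC UBF was concentrated in a single block. Clusters were taken as runs of 3 or more peaks of a list whose neighbouring centres lay at most 50 kb apart. HMEC UBF had 4 such clusters, and 61 of the 91 peaks lay in the largest pair of them, which were neighbours. The first held 45 peaks from 144876061 to 145155184 (279 kb) at a median spacing of 3.43 kb, and the second held 16 peaks from 145208289 to 145292592 (84.3 kb) at 4.69 kb. From the start of the first to the end of the second, called the UBF block from here on, is 417 kb. The remaining clusters were 3 peaks each, at 144006442 to 144016221 and at 145589153 to 145617462. On the rest of chromosome 1 the largest HMEC UBF cluster held 21 peaks.

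In the UBF block HMEC UBF stood at 146 peaks per Mb (112 to 188) and covered 16% of the sequence. In the segment outside the block it stood at 4.42 per Mb (2.98 to 6.31), close to the 4.01 per Mb of the rest of the chromosome. Without the block, the density of HMEC UBF in the segment was 1.10 times that of the rest (0.74 to 1.59). The block was defined by the largest HMEC UBF clusters of the segment, so taking it out must lower this density. The rest kept its own largest clusters, so the ratio without the block is a description only. HMLER UBF and HMEC Pol I had 20 peaks each in the block, or 48.0 per Mb (29.3 to 74.2). The 4 fullest HMEC UBF windows of the segment, from 144900001, 145000001, 145100001 and 145200001, held 9, 22, 13 and 16 HMEC UBF peaks. The same windows held 3, 7, 4 and 5 HMLER UBF peaks and 5, 11, 1 and 3 Pol I peaks. Of the 11 other windows of chromosome 1 with at least 5 HMEC UBF peaks, 5 had more HMEC than HMLER peaks, and together they held 75 HMEC and 86 HMLER peaks, against 60 and 19 in the 4 windows of the segment. The fullest HMEC UBF window outside the segment, from 16900001, held 12 HMEC UBF and 5 HMLER UBF peaks. Also among those 5 were the window from 149800001, near the distal limit of the segment, with 10 and 6, and that from 120500001, with 7 and 0.

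The 5 widest HMEC UBF members all lay in the block. The widest ran from 145037799 to 145041541 (3742 bp), and both Pol I and HMLER UBF had peaks inside it. The next, from 145056658 to 145060318 (3660 bp), met no peak of either list, and the same held for the peaks from 144991021 to 144993945 (2924 bp) and from 145275361 to 145278040 (2679 bp). The third widest, from 145208289 to 145211219 (2930 bp), contained an HMLER UBF peak from 145208541 to 145210756. Wide HMEC UBF peaks of the block were therefore found both with and without a counterpart in HMLER.

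**Figure D3:**
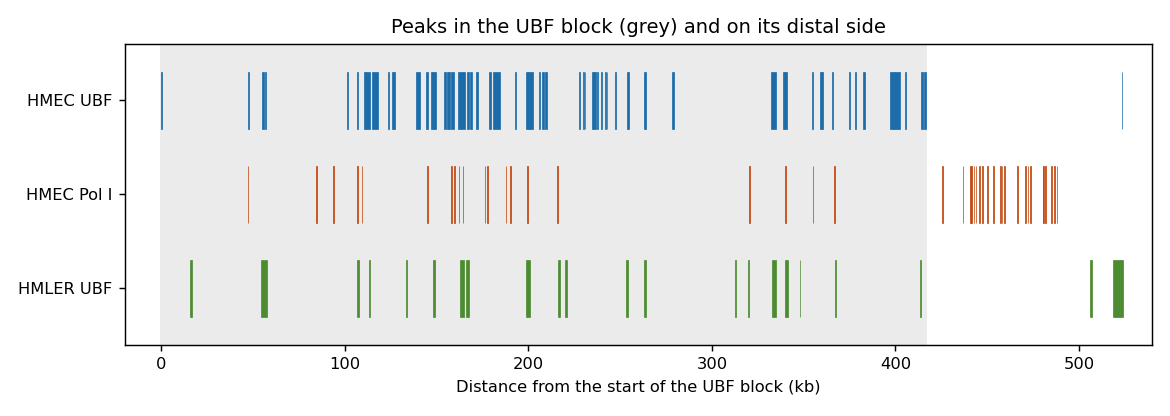
Position of each peak, drawn to its width, in kb from the start of the UBF block (grey, 417 kb) for HMEC UBF, HMEC Pol I and HMLER UBF. The block holds 61 HMEC UBF peaks against 20 of each other list, and the 23 Pol I peaks on its distal side lie where neither UBF list has a peak.

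HMEC Pol I peaks were spread over more places. They formed 14 clusters, which held 119 of the 139 Pol I members (85.6%), against 24.2% of Pol I peaks in clusters on the rest of the chromosome. The fullest, 23 peaks from 145301523 to 145364262 (62.7 kb, median spacing 1.68 kb, median width 396 bp), began 8931 bp beyond the last UBF peak of the UBF block. Another 23 peaks lay from 148177124 to 148347822 (171 kb), 19 from 144155865 to 144224490 (68.6 kb) and 16 from 144923139 to 145092032 (169 kb), the last within the UBF block. Smaller clusters held 6 peaks from 147967579 to 148015775 and 5 from 148562798 to 148599502. The largest Pol I cluster on the rest of chromosome 1 held 14 peaks.

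Long series of Pol I peaks had no UBF among them. The cluster from 145301523 and the cluster from 144155865 contained no UBF peak of HMEC or HMLER. Along the segment, 3 uninterrupted series of at least 20 Pol I peaks had no UBF peak of either line between their members: 23 peaks from 145301523 to 145364262, 20 peaks from 144155865 to 144340604 and 20 peaks from 148255813 to 148347822. Together these held 63 of the 139 Pol I members (45.3%) in 4.71% of the length of the segment. The nearest UBF peak lay 8931, 357 and 756 bp beyond an end of these series, in that order. On the rest of chromosome 1 the longest such series held 10 Pol I peaks. Pol I peaks were denser in the segment, and the lengths of the series were not adjusted for this. In the segment outside the block, HMEC UBF stood at 4.42 per Mb and HMLER UBF at 10.2 per Mb. Whether UBF was absent from the series more than these densities give was not tested. The median Pol I width in the 3 series was 396, 416 and 559 bp, above the 287 bp of the rest of the chromosome. The windows from 144100001, 148200001, 148300001 and 145300001, which held 14, 14, 8 and 23 Pol I peaks, held 0, 1, 1 and 1 HMEC UBF and 0, 2, 0 and 3 HMLER UBF peaks.

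Of the 5 widest Pol I members, 4 met no UBF peak. They ran from 148010015 to 148011245 (1230 bp), from 148013699 to 148014632 (933 bp), from 148312654 to 148313507 (853 bp) and from 145346592 to 145347430 (838 bp). The fifth widest, from 143914352 to 143915181 (829 bp), lay wholly inside an HMEC UBF peak from 143914005 to 143915384 and met HMLER UBF as well.

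By the share of peaks in clusters and by spacing, HMLER UBF was clustered in the segment much as it was elsewhere. Its largest cluster was smaller, at 18 peaks against 65 on the far longer rest of the chromosome, and its fullest window held 7 peaks against 15. Its 10 clusters held 63 of 89 peaks (70.8%), against 77.0% on the rest of the chromosome, and its median spacing was 22.3 kb against 20.2 kb. The largest held 18 peaks from 144982759 to 145290068, within the UBF block, a size that depends on the allowed distance: with neighbours at most 20 kb apart the largest held 6 peaks, and with 100 kb it held 37. The next, 17 peaks from 145382182 to 145611683, contained 4 HMEC UBF peaks and 1 Pol I peak, and takes in the 2 fullest HMLER windows outside the block, from 145500001 (7 peaks) and from 145400001 (6 peaks). Another 5 lay from 144480959 to 144535533. The widest HMLER members were those from 145394712 to 145398210 (3498 bp, no HMEC UBF or Pol I), from 144930470 to 144933518 (3048 bp, with HMEC UBF), from 149222531 to 149225008 (2477 bp, with HMEC UBF) and from 145514863 to 145517220 (2357 bp, alone). Of the 5 widest, 3 met HMEC UBF, the fifth being the peak from 145208541 named above. No HMLER window of the segment reached 10 peaks, whereas 39 windows of the chromosome did.

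Peaks of 2 lists that had 1 bp or more in common were counted as shared. The share of HMEC UBF peaks with an HMLER UBF peak was lower in the segment than elsewhere, at 36 of 91 (39.6%, exact binomial 95% interval 29.5 to 50.4) against 583 of 970 on the rest of the chromosome (60.1%, 56.9 to 63.2) and 56.8% in the whole list. The difference is a description, since peaks of 1 list are not replicates. The share was lower in the segment in each width group, with intervals that overlapped those of the rest in all but the widest. Given the width makeup of the segment, the rest of the chromosome would have a share of 65.3%. In the widest of 4 width groups (656 to 3814 bp), which held 55 of the 91 members, the shares were 43.6% (30.3 to 57.7) and 67.5% (60.7 to 73.8). In the group of 482 to 654 bp they were 40.0% (19.1 to 64.0) of 20 members and 69.4% (63.2 to 75.1). Only 8 members fell into each of the narrower groups, with 25% shared in each and intervals from 3.19% to 65.1%. The rest had 45.7% (39.5 to 52.0) in the group of 219 to 381 bp and 59.7% (53.4 to 65.7) in that of 382 to 480 bp.

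The low share was that of the UBF block, which was chosen for its HMEC UBF clusters. It held 61 HMEC UBF peaks against 20 HMLER UBF peaks, so a low share inside it is partly built into that choice. There 14 of 61 HMEC UBF peaks met an HMLER UBF peak (23.0%, 13.2 to 35.5), and in the rest of the segment 22 of 30 did (73.3%, 54.1 to 87.7). The block peaks were the wider ones, with a median of 855 bp against 621 bp. Of the 61, 43 met neither HMLER UBF nor Pol I (70.5%, 57.4 to 81.5), against 8 of 30 outside the block (26.7%, 12.3 to 45.9). Where HMEC UBF peaks were shared they were mostly covered, with a median of 99.5% of the peak inside HMLER UBF and 3 of 36 covered by less than 50%.

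**Figure D4:**
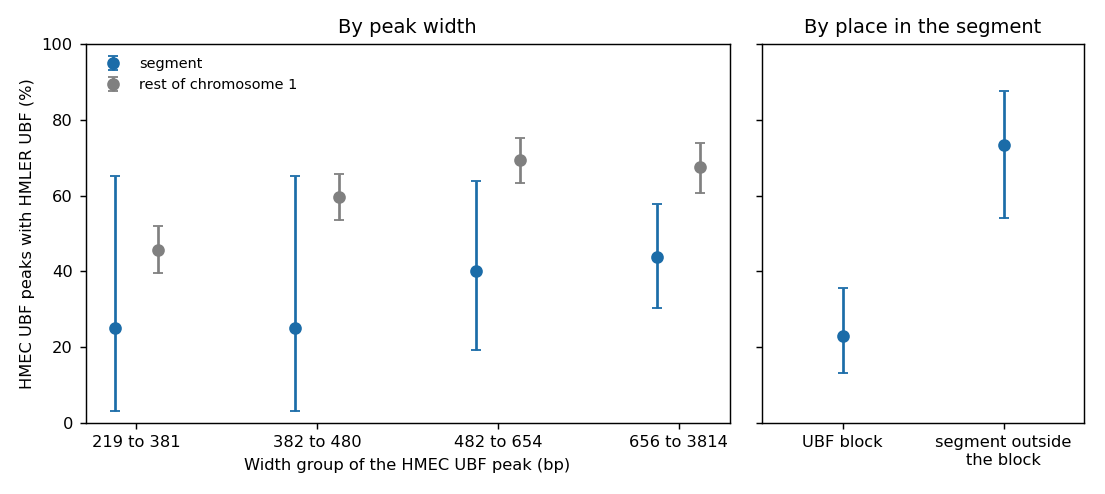
Percent of HMEC UBF peaks that overlap an HMLER UBF peak, with exact 95% binomial intervals, by width group in the segment (blue) and the rest of chromosome 1 (grey) on the left, and inside and outside the UBF block on the right. The segment lies below the rest in each width group, with intervals that overlap in all but the widest. The block, at 23.0%, lies below the segment outside it, at 73.3%. The block was chosen for its HMEC UBF clusters, so this contrast is a description only.

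In the other direction the share of HMLER UBF peaks that met HMEC UBF was higher in the segment, at 35 of 89 (39.3%, 29.1 to 50.3) against 14.5% on the rest (13.4 to 15.7) and 14.6% in the whole list. HMEC UBF covered 1.23% of the segment and 0.22% of the rest, and the share was not adjusted for this. By place the shares were 12 of 20 in the block (60%, 36.1 to 80.9), where HMEC UBF covered 16% of the sequence, and 23 of 69 outside it (33.3%, 22.4 to 45.7). In the widest group of HMLER peaks (1500 to 6383 bp) 14 of 24 members (58.3%, 36.6 to 77.9) were shared, against 38.0% on the rest (34.8 to 41.3). In the group of 957 to 1499 bp 13 of 24 were (54.2%, 32.8 to 74.4), against 13.9% (11.7 to 16.3). The widest shared HMLER members were those from 144930470, 149222531 and 145208541 given above, from 143743023 to 143745095 (2072 bp), from 145038729 to 145040717 (1988 bp), from 146643371 to 146645237 (1866 bp), from 147805924 to 147807763 (1839 bp, shared with Pol I alone), from 144592847 to 144594684 (1837 bp), from 145074863 to 145076699 (1836 bp) and from 145215624 to 145217377 (1753 bp). They lie on both sides of the block as well as in it. Among HMEC UBF the 10 widest shared members included, beside those already named, peaks from 144987589 to 144989817 (2228 bp), from 145076542 to 145078712 (2170 bp), from 145023954 to 145025733 (1779 bp) and from 145033810 to 145035401 (1591 bp, shared with Pol I alone). The list ends with a peak from 145289764 to 145291016 (1252 bp), the next to last of the block.

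UBF and Pol I of the same HMEC cells shared few peaks in the segment, and the share of UBF peaks with 1 bp or more in common was higher there than elsewhere. Both lists were also denser there. Pol I covered 0.791% of the segment and 0.119% of the rest, and HMEC UBF 1.23% and 0.22%. The shares and distances below were not adjusted for this. Of the HMEC UBF members 11 of 91 met Pol I (12.1%, 6.19 to 20.6), against 3.81% on the rest (2.70 to 5.22) and 2.72% in the whole list. When 50% or more of the UBF peak had to be covered, the shares were 3.30% (0.685 to 9.33) and 1.65%, and the interval of the segment took in the share of the rest. Of the Pol I members 13 of 139 met HMEC UBF (9.35%, 5.07 to 15.5), against 4.03% (2.84 to 5.54) and 2.86%, with overlapping intervals for the segment and the rest. In the UBF block 9 of 20 Pol I peaks met HMEC UBF (45.0%, 23.1 to 68.5). Outside it 4 of 119 did (3.36%, 0.923 to 8.38), a share near that of the rest of the chromosome. HMEC UBF covered 16% of the block and 0.33% of the segment outside it. The block was chosen for its HMEC UBF clusters, so a higher share inside it is built into that choice. The median distance from a Pol I member to the nearest HMEC UBF centre was 33.4 kb (quartiles 6.38 and 113), against 55.2 kb (17.3 and 141) for Pol I peaks on the rest. From an HMEC UBF member to the nearest Pol I centre it was 8.03 kb (1.69 and 23.5) against 49.0 kb (16.8 and 109).

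Pol I peaks of HMEC met HMLER UBF at 15 of 139 (10.8%, 6.17 to 17.2), against 15.3% on the rest (13.0 to 17.9) and 12.4% in the whole list, with overlapping intervals. HMLER UBF met HMEC Pol I at 15 of 89 (16.9%, 9.75 to 26.3), against 3.67% (3.07 to 4.34) and 3.47%. This share was not adjusted for the density of Pol I, which covered 0.791% of the segment and 0.119% of the rest. The widest Pol I members shared with a UBF list, after that from 143914352, were from 145075360 to 145076111 (751 bp, both UBF lists), from 149576448 to 149576981 (533 bp, HMLER UBF) and from 145020761 to 145021285 (524 bp, HMEC UBF). A pair at 148598093 to 148598585 and 148599026 to 148599502 (492 and 476 bp) met both UBF lists, as did the peaks from 148000603 (465 bp) and from 145215867 (438 bp). The peaks from 145034126 (380 bp) and 145230915 (378 bp) met HMEC UBF alone.

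Merging overlapping peaks of the 3 lists gave 262 separate loci in the segment and 4704 on the rest of the chromosome. Loci of Pol I alone made up 119 of the 262 (45.4%, 39.3 to 51.7), against 15.9% of the rest (14.9 to 17.0). Loci of HMEC UBF alone were 51 (19.5%, 14.9 to 24.8) against 8.04% (7.27 to 8.85), and loci of HMLER UBF alone were 49 (18.7%, 14.2 to 24.0) against 63.0% (61.6 to 64.4). UBF of both lines without Pol I was found at 25 loci (9.54%, 6.27 to 13.8), a share within the interval of the rest (10.1%, 9.25 to 11.0). In all 3 lists together there were 9 loci (3.44%, 1.58 to 6.42) against 0.893% (0.644 to 1.21). The segment was chosen for its peak density, with 3.15 times the HMEC UBF and 5.23 times the Pol I density of the rest. Shares of loci depend on these densities and were not adjusted for them.

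The 9 loci of all 3 lists were spread over the segment. In the UBF block, 4 of them lay at 144982658 to 144983557, 145037799 to 145041541, 145074856 to 145078712 and 145215459 to 145217377. The others lay at 143913215 to 143915754, 147752113 to 147753234, 147999565 to 148001184, 148247019 to 148248363 and 148598046 to 148599502. At 147752113 and at 148247019 the HMEC UBF and Pol I peaks did not touch each other, and the HMLER UBF peak met both. The locus at 148247019 lay at the centromeric edge of the dense part of a Pol I cluster, 7450 bp before the series of 20 Pol I peaks without UBF that began at 148255813.

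Some distances between Pol I peaks of the segment were commoner than others. Among the 290 pairs of Pol I members with centres less than 15 kb apart, the fullest of the 250-bp distance bins was 4750 to 5000 bp, with 17 pairs, against a median of 4 pairs per bin. The next was 9500 to 9750 bp, with 13 pairs, and the 5 bins beginning at 1250, 2250, 6500, 14000 and 14250 bp held 9 pairs each. On the rest of chromosome 1, 1 of 197 Pol I pairs fell between 4750 and 5000 bp (0.508%), against 5.86% in the segment. HMEC UBF members had 4 of 173 pairs in that bin (2.31%) and HMLER UBF members 0 of 40. The distance was noticed in these data, and no test was made of it.

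To show where such pairs lie, Pol I centres 4600 to 5000 bp apart were linked into chains of at least 3 peaks, whatever other peaks lay between them. The range was set around the fullest bin, so the size of the steps is fixed by the choice and supports nothing further. There were 3 chains with 13 of the 139 Pol I members (9.35%). The first had 5 peaks, beginning at 144182600, 144187398, 144192109, 144196919 and 144201650, with steps of 4896, 4611, 4897 and 4761 bp between centres, and 6 further Pol I peaks lay between its links. The second had 5 peaks, beginning at 148304087, 148308717, 148313623, 148318395 and 148323143, with steps of 4730, 4821, 4778 and 4804 bp, and 1 further peak between them. The third had 3 peaks, beginning at 145316426, 145321352 and 145326167, with steps of 4822 and 4769 bp, and 4 further peaks between them. Each chain lay in a different one of the 3 Pol I series that contain no UBF peak. Pol I peaks on the rest of the chromosome gave no chain, at their median spacing of 131 kb against 6.03 kb in the segment. HMEC UBF members gave 1 chain of 3 peaks, and HMLER UBF gave none in the segment and 2 of 3 peaks each among its 3573 peaks on the rest.

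**Figure D5:**
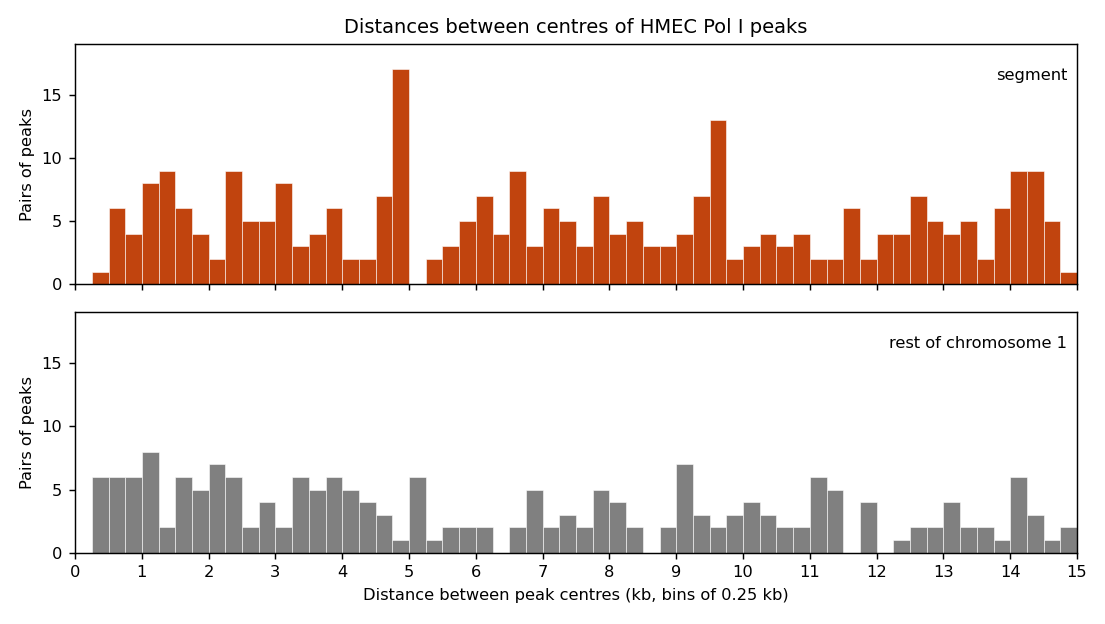
Number of pairs of HMEC Pol I peaks by the distance between their centres in kb (bins of 250 bp), in the segment (top, 290 pairs) and on the rest of chromosome 1 (bottom, 197 pairs). The tallest bars of the segment are those of 4750 to 5000 bp (17 pairs) and 9500 to 9750 bp (13 pairs), and the rest of the chromosome has 1 pair between 4750 and 5000 bp.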

How the data were processed

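The 3 human ChIP-seq peak lists (HMEC UBF, HMEC Pol I, HMLER UBF) were analysed, and the 7 mouse lists of the series were not used here. The authors deposited the chromosome, start and end of each peak, in base pairs, per the file headers, with no height, score, p-value or read count, so the depth is unknown. Per the submitters' processing notes, CASAVA 1.8.2, BWA, Picard and the build hg19 were used. The sources used here do not give the caller of the peaks and its threshold, the use of input DNA, or the treatment of reads that map to more than 1 place. The origin of the coordinates (0 or 1) is not given either.

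Peaks were assigned to the segment by their centre. Overlaps, clusters, Poisson and Clopper-Pearson 95% intervals and distances were computed with Python 3.11.15 and scipy 1.17.1, and the code was tested on simulated data. The rest of chromosome 1 is its length from the first to the last human peak (249 Mb in all) less the segment. Width groups are cut at the quartiles of each list on the chromosome. Regions are named by rule: the 10 fullest 100-kb windows, clusters of 5 or more peaks, the 5 widest members and the 10 widest shared members of each list. The segment, and the rules on it, were chosen with earlier results of these data known. The UBF block, the Pol I series and the spacing were defined after the positions were seen.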

Additional observations from a re-analysis of the deposited data

Results flagged for a closer look

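UBF peak density in the segment, relative to the rest of chromosome 1, was 3.15 (2.52 to 3.91) in HMEC and 0.837 (0.671 to 1.03) in HMLER. The HMLER interval took in 1. The HMEC ratio was 3.77 times the HMLER ratio. With 1 list per line the difference was not tested. Outside the UBF block, which was chosen for its HMEC UBF clusters, the ratios were 1.10 and 0.689.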

How the results depend on the processing

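Of 68 results under an alternative setting, 52 stayed within the 95% interval of the reported value (or within 1.5 times a count of clusters) and 16 did not. The density of HMEC UBF in the segment over the rest, 3.15, became 1.77 with peaks within 5 kb merged, 5.33 in the wider 50% of the list, 5.60 in covered base pairs, 2.43 without its fullest 100-kb window and 1.10 without the UBF block. That of HMEC Pol I, 5.23, became 2.94 with peaks merged, 8.38 in the wider 50% and 6.62 in covered base pairs. The ratio of HMLER UBF stayed below 1 under its 8 alternatives (0.689 to 0.941), though the intervals of some of them took in 1.

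The share of HMEC UBF peaks in HMLER UBF, 39.6%, was 73.3% of 30 peaks without the UBF block (54.1 to 87.7). That interval took in the 60.1% of the rest of the chromosome. The share was 17.6% (10.4 to 27.0) with only the 9478 widest HMLER peaks kept, where the rest stood at 43.8%. With that reduction the share of HMLER peaks in HMEC UBF was 53.9% of 26 peaks (33.4 to 73.4), against 35.3% on the rest. That of Pol I peaks in HMLER UBF was 4.32% (1.60 to 9.16), against 8.29%. Both intervals took in the share of the rest. Leaving out the UBF block and reducing the HMLER list were chosen after the data were seen. Without the block the share of Pol I peaks in HMEC UBF was 3.36%, against 4.03% on the rest. When 50% or more of a peak had to be covered, the share of HMEC UBF in Pol I was 3.30% (0.685 to 9.33), against 1.65% on the rest. That of HMLER UBF in Pol I was 2.25% (0.273 to 7.88), against 0.336%. Both intervals took in the share of the rest. That of HMLER UBF in HMEC UBF was 25.8% (17.1 to 36.2), against 2.35%. With neighbours at most 20 or 100 kb apart, the numbers of clusters were 4 and 5 for HMEC UBF, 12 and 14 for Pol I and 10 and 10 for HMLER UBF. The largest cluster then held 41 and 61 HMEC UBF peaks (45 as reported), 23 and 27 Pol I peaks (23), and 6 and 37 HMLER UBF peaks (18). With no score in the files, width stood in for a stricter threshold. No paired analysis was possible because each antibody and line has 1 list, and no list could be left out.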
